A study of Drosophila melanogaster with 9 samples.

Results

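The dorsal organ is the olfactory organ of the *Drosophila melanogaster* larva, and the RNA of wild-type dorsal organs is described here on its own. The 4 libraries labelled wild-type were taken from a series of 9 samples that also holds *Orco* mutants, which were left out. Each wild-type sample held 20 dorsal organs from larvae of the third instar and was isolated independently. The larvae carried *Orco-Gal4* and *UAS-mCD8-GFP* in a *w1118* background, so that olfactory receptor neurons (ORNs) were marked with GFP. Organs were picked by hand for their GFP once collagenase had loosened the tissue, so that the samples were not limited to the marked neurons. The cDNA was made with Smart-seq2, which copies RNA with a poly(A) tail without molecular identifiers, and was read as single-end reads of 51 bases.

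Each larval ORN extends a sensory dendrite into the dome of the dorsal organ, where odors enter through pores in the cuticle. Most ORNs express 1 odorant receptor (OR) together with the co-receptor Orco, and the pair forms an odor-gated cation channel in the membrane of the dendrite. Support cells wrap the dendrites, build the cuticular dome and secrete the lymph that bathes the dendrites. This lymph contains odorant-binding proteins (OBPs), small soluble proteins that bind odorants. The organ also houses non-olfactory neurons, among them cool-sensing neurons that use ionotropic receptors (IRs).

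Levels of a gene across libraries are given as CPM, the counts of a library scaled to a total of 1000000 after genes with rRNA in their name were left out. Sums and ranks in CPM describe the share of the counts that genes took, which also depends on transcript length. Levels of different genes are put in order as length-scaled levels, which are counts per kilobase of annotated transcript scaled like CPM to the same total in each library. The libraries held 4432839 to 7005182 estimated counts, of which 33.3 to 53.8% fell on rRNA genes, leaving 2511786 to 4217133. Of 17283 other genes, 10902 had a count in at least 1 library, 7028 had a count in all 4 and 1489 in only 1. The numbers of detected members in the gene lists below are to be read against these numbers for all genes. A floor of 3 counts corresponded to 0.711 to 1.19 CPM, and a gene at 0 counts may lie below it. In a bulk sample, fewer cells of a type and less RNA per cell cannot be told apart. The 4 samples form 1 group, so no test was made, and differences between genes or libraries are read against the spread of the 4 values.

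*Orco*, the gene of the co-receptor, was detected at similar levels in all 4 wild-type libraries. It measured 408 CPM in library 1, 538 in library 2, 615 in library 3 and 423 in library 4, with a mean of 496 ± 98.3 CPM (SD, n = 4). The highest library was thus 1.51-fold above the lowest. The gene has 2 annotated transcripts, and Orco-RA took 81.6% of its counts in library 1, 87.9% in library 2, 92.8% in library 3 and 100% in library 4. *Orco* was the marker by which the organs were chosen, through its Gal4 driver, and its RNA was present in each library.

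A small number of genes supplied a large part of the transcriptome. The 10 highest genes of a library took 17.5 to 22.2% of its counts without rRNA genes, and the 100 highest took 39.9 to 45.9%. The 30 genes with the highest mean CPM comprised 5 OBP genes, 5 genes of the mitochondrial genome, 4 ribosomal protein genes and further genes for the cytoskeleton, chaperones, cuticle and detoxification. Among these 30 genes, 23 were also among the 30 highest on the length-scaled scale.

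**Figure D1:**
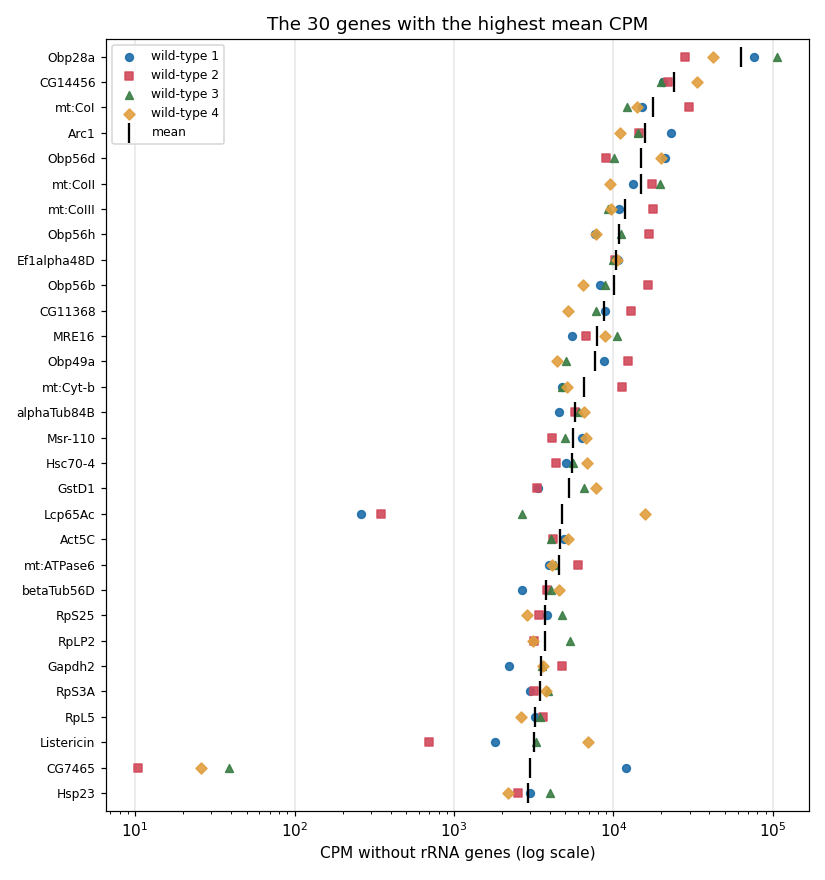
The 30 genes with the highest mean CPM, 1 row per gene, with the CPM of each wild-type library on a log axis (colored symbols) and their mean (black bar). *Obp28a* lies between 28111 and 105439 CPM, the 4 symbols of *Ef1alpha48D* overlap near 10341 CPM, and those of *CG7465* and *Lcp65Ac* are spread over the widest ranges.

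*Obp28a*, an OBP gene also expressed at a high level in the adult antenna, was the most abundant gene on both scales. It measured 76138 CPM in library 1, 28111 in library 2, 105439 in library 3 and 42394 in library 4, a mean of 63020 ± 34715 CPM (SD, n = 4). Libraries 1 and 3 were high and libraries 2 and 4 low. The gene lies on chromosome 2L from 7496791 to 7497365 on the reverse strand of the Release 6 genome and has a single annotated transcript.

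The next gene on both scales was *CG14456*, a protein-coding gene that the annotation names only by number. It measured 20347 CPM in library 1, 22079 in library 2, 19828 in library 3 and 33323 in library 4, a mean of 23894 ± 6359 CPM (SD, n = 4). Library 4 stood above the other 3, which lay close together. *CG14456* lies on chromosome 3L from 22687222 to 22688288. *CG14455*, its neighbor on the opposite strand from 22686360 to 22687087, was also abundant at 834, 1794, 1586 and 1929 CPM in libraries 1 to 4. The other 6 genes of the same 13511-bp region had 0 counts in all 4 libraries.

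*Arc1*, which encodes a Gag-like protein that forms capsids and is induced by neuronal activity, ranked 4 by mean CPM and 15 by length-scaled level. It measured 23048 CPM in library 1, 14428 in library 2, 14313 in library 3 and 10988 in library 4. Library 1 was the highest, and the mean was 15694 ± 5156 CPM (SD, n = 4). *Arc1* alone gave 92.6% of the summed mean CPM of 15 immediate early and stress genes. Of the others, the Fos gene *kay* averaged 222 ± 53.4 CPM and the Jun gene *Jra* 154 ± 81.8 CPM (SD, n = 4). *Hr38*, an activity-regulated nuclear receptor gene, had 0 CPM in library 1, 32.3 in library 2, 0.338 in library 3 and 32.7 in library 4.

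*CG11368*, another numbered gene, averaged 8695 ± 3196 CPM, and the non-coding RNA gene *MRE16* averaged 7900 ± 2257 CPM (SD, n = 4). Both have short transcripts, so that on the length-scaled scale they ranked 3 and 5. The genes of the general cellular machinery were more even. *alphaTub84B* and *betaTub56D*, which encode tubulins, averaged 5734 ± 836 and 3776 ± 804 CPM, and the actin gene *Act5C* averaged 4591 ± 554 CPM (SD, n = 4).

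OBP genes made up the largest chemosensory share of the RNA. The 52 OBP genes together took 12.5% of the counts in library 1, 8.56% in library 2, 14.3% in library 3 and 8.59% in library 4. Of these genes, 19 had counts in all 4 libraries, 22 in 1 to 3 libraries and 11 in none. *Obp28a* alone gave 57.3% of the summed mean. On the length-scaled scale it lay above *Obp56d* without overlap of the 4 values. *Obp56d*, *Obp56h*, *Obp56b* and *Obp49a* followed with overlapping values, and *Obp49a* lay above *Obp56c* without overlap. These were the only separate pairs among the 18 pairs of neighbors in the order of the 19 genes detected in all 4 libraries.

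The abundant OBP genes did not share 1 order of libraries. *Obp56h* measured 7630, 16753, 11114 and 7759 CPM in libraries 1 to 4, and *Obp56b* measured 8221, 16528, 8885 and 6456 CPM. Both were highest in library 2. *Obp56d* measured 21050 CPM in library 1, 8961 in library 2, 10042 in library 3 and 19837 in library 4, which made library 2 its lowest. *Obp49a* measured 8668, 12356, 5050 and 4423 CPM in libraries 1 to 4 and was again highest in library 2. *Obp56a* varied most among the abundant members, with 799 CPM in library 1, 33.2 in library 2, 407 in library 3 and 960 in library 4.

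Unlike *Obp28a*, some other OBP genes known from the adult antenna were low or absent. *Obp83a* measured 69.3, 6.77, 101 and 52.2 CPM and *Obp83b* 150, 52.6, 149 and 53.6 CPM in libraries 1 to 4, with the lowest value of each in library 2. *lush*, which encodes the OBP required for the response of adult neurons to the pheromone cis-vaccenyl acetate, had 0 counts in all 4 libraries. *Obp50b* and *Obp50c* had identical counts in every library, at a mean of 6.69 CPM, and cannot be told apart in these data.

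Abundant and silent genes lay side by side in gene clusters. The Obp56 cluster holds 9 genes on chromosome 2R from 19697723 to 19868714 and took 3.21 to 4.43% of the counts. *Obp56a* to *Obp56d*, which are adjacent, averaged 550, 10023, 2093 and 14972 CPM. *Obp56e*, next to *Obp56d*, averaged 51.8 CPM, and *Obp56g* 4.14 CPM. *Obp56f* and *Obp56i* had 0 counts in all 4 libraries, while *Obp56h* between *Obp56g* and *Obp56i* averaged 10814 CPM.

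**Figure D2:**
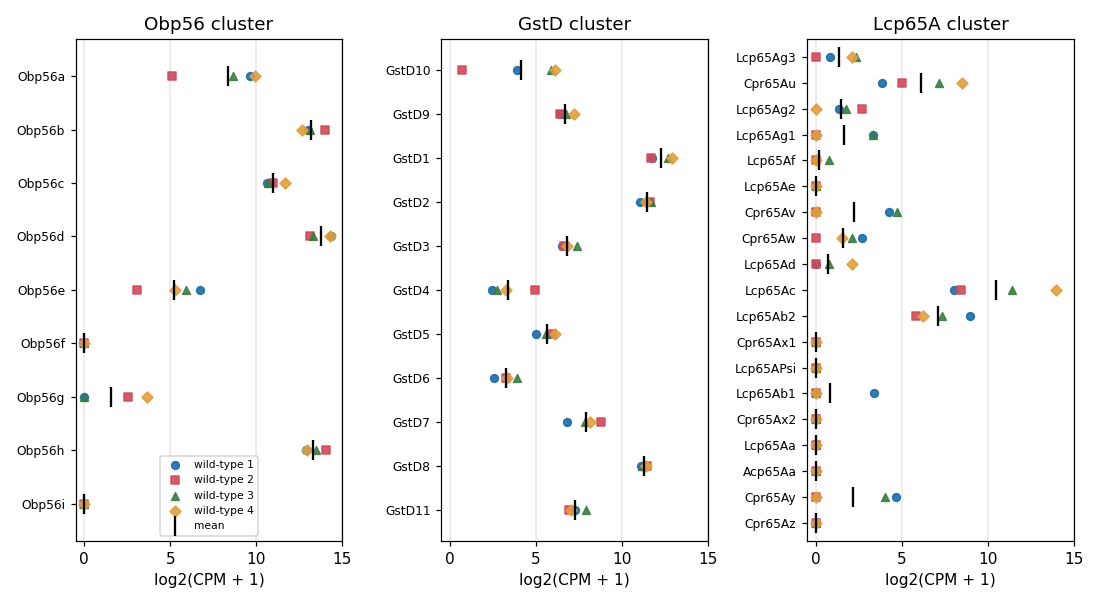
Levels in 3 gene clusters, with the genes of each cluster from top to bottom in their order along the chromosome and log2(CPM + 1) of each library on the x axis (colored symbols), the black bar being the mean of the 4 log2 values. *Obp56b*, *Obp56d* and *Obp56h*, *GstD1*, *GstD2* and *GstD8*, and *Lcp65Ac* have the highest means of their clusters, and *Obp56f*, *Obp56i* and 7 genes of the Lcp65A cluster lie at 0.

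Among other odor-handling genes, *EbpIII*, a gene of the insect chemosensory protein family, measured 611 CPM in library 1, 819 in library 2, 923 in library 3 and 754 in library 4. Its mean was 777 ± 131 CPM (SD, n = 4), and it gave 69.9% of the sum of the 13 genes of this group. *a10*, of the same family, reached 225 CPM in library 2 and lay between 9.95 and 33.8 CPM in the others. *Snmp1*, a CD36-type membrane protein of pheromone-sensing neurons in the adult fly, measured 21.5, 2.15, 56.1 and 23.5 CPM in libraries 1 to 4. The ammonium transporter gene *Amt* had 0 counts in every library.

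Odorant receptor transcripts were rare and uneven. The 27 OR genes listed here as larval, from what is known of receptor expression in larval ORNs, summed to 281 CPM in library 1, 581 in library 2, 417 in library 3 and 451 in library 4, with a mean of 432 ± 123 CPM (SD, n = 4). Of these genes, 13 had counts in all 4 libraries and 10 in 1 to 3 libraries. *Or2a*, *Or49a*, *Or71a* and *Or82a* had 0 counts in all 4. The 32 other OR genes summed to 23 to 47 CPM, none of them was detected in all 4 libraries and 24 had 0 counts throughout.

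*Or45a*, whose receptor responds to octyl acetate, measured 33.8, 91.7, 32.5 and 41.7 CPM in libraries 1 to 4 and was highest in library 2. *Or42a* and *Or42b* encode receptors for fruit esters such as ethyl acetate. *Or42a* was detected in every library, at 21.5, 31.4, 35.2 and 8.06 CPM. *Or42b* measured 52.6 CPM in library 1 and 50.7 in library 3, but 0.615 in library 2, which is below the floor of 3 counts, and 0 in library 4.

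Several other OR genes were high in some libraries and near 0 in others. *Or67b* measured 34.6, 0.615, 73.4 and 21.6 CPM and *Or83a* 32.6, 3.38, 45.6 and 29.9 CPM in libraries 1 to 4, both lowest in library 2. *Or94a* measured 0 CPM in library 1, 67.7 in library 2, 10.5 in library 3 and 69.5 in library 4. *Or94b*, which shares an ORN with *Or94a*, was highest in library 3 at 25.7 CPM and lay between 0.923 and 4.38 CPM in the others. *Or47a* and *Or33b* also share an ORN: *Or47a* measured 2.39, 36.3, 7.78 and 37.9 CPM and *Or33b* 3.58, 14.8, 1.35 and 0 CPM.

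The receptors for aromatic odors *Or30a* and *Or24a* were likewise uneven, with *Or30a* at 6.77, 92.9, 18.9 and 10.4 CPM and *Or24a* at 20.7, 26.1, 2.70 and 2.13 CPM in libraries 1 to 4. *Or30a* was highest in library 2, and *Or24a* was higher in libraries 1 and 2 than in libraries 3 and 4. *Or35a* and *Or13a*, whose receptors respond to alcohols, were detected in all 4 libraries, at 18.6 to 56.4 CPM and 5.57 to 28.6 CPM. On the length-scaled scale, none of the 12 pairs of neighbors in the order of the 13 genes detected everywhere was free of overlap, so that no order of OR levels can be read from these libraries.

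The spread of the larval OR genes was larger than that of all genes. Over the 17 with a mean of at least 10 CPM, the median coefficient of variation (CV, the SD as a percent of the mean) was 88.3% and the median ratio of the highest to the lowest library was 13.5. Over all 6800 genes at that level these values were 52.4% and 3.54. The larval OR genes have low levels, and the CV of all genes fell with level, from a median of 66.4% at a mean of 10 to 50 CPM to 35.3% at 50 CPM or more. The highest value of these 17 genes was in library 4 for 7 genes, in library 2 for 6, in library 3 for 3 and in library 1 for 1. These are 41.2, 35.3, 17.6 and 5.88%, where 27.6, 31.9, 19.0 and 21.5% of all genes at that level were highest in libraries 4, 2, 3 and 1.

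**Figure D3:**
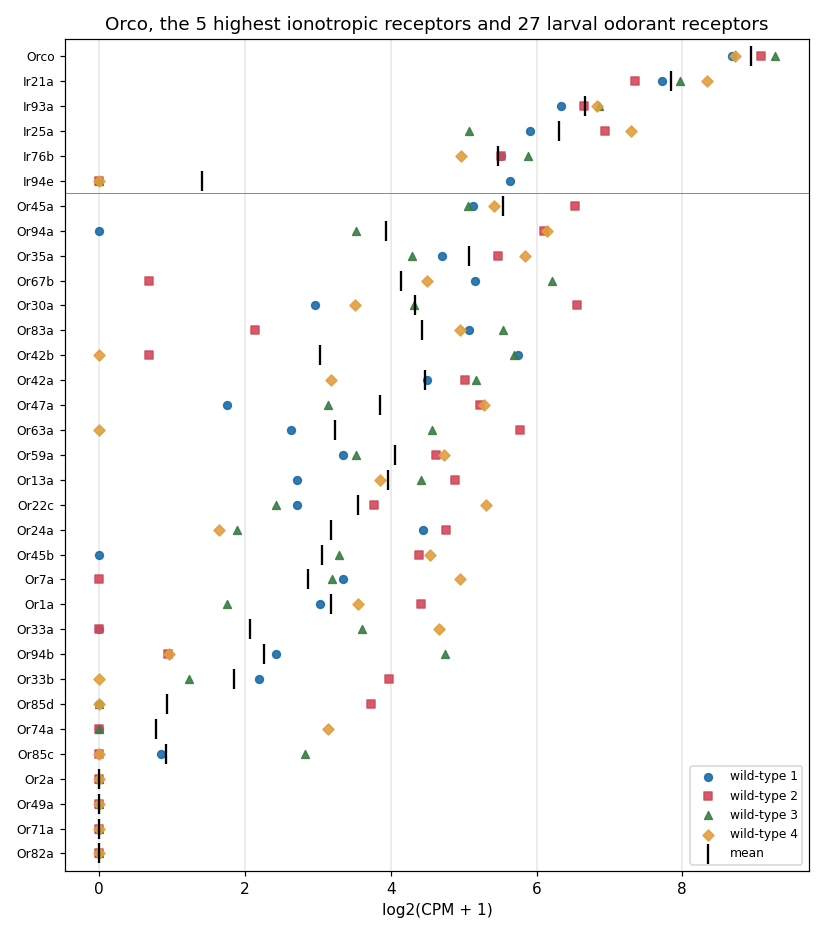
*Orco*, the 5 IR genes with the highest mean CPM and the 27 larval OR genes, with log2(CPM + 1) of each wild-type library (colored symbols) and the mean of the 4 log2 values (black bar), the grey line separating the OR genes. The 4 values of *Orco*, *Ir21a*, *Ir93a* and *Ir76b* lie close together, whereas those of *Or94a*, *Or42b* and *Or63a* run from 0 to above 50 CPM.

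*Ir21a* and *Ir93a*, IR genes of the cool-sensing neurons, were more even than the larval OR genes as a group, which had lower levels. *Ir21a* measured 209 CPM in library 1, 162 in library 2, 249 in library 3 and 324 in library 4, a mean of 236 ± 68.5 CPM (SD, n = 4). *Ir93a*, a co-receptor of the same complex, measured 79.6, 99.0, 115 and 113 CPM. *Ir25a*, the broadly used co-receptor, varied more, at 58.9, 122, 32.8 and 156 CPM in libraries 1 to 4. On the length-scaled scale, *Ir21a* lay above *Ir93a* in all 4 libraries without overlap, while *Ir25a* overlapped both *Ir93a* and *Ir76b*.

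*Ir76b*, a co-receptor of amine and taste receptors, measured 44.6, 44.6, 58.1 and 30.4 CPM in libraries 1 to 4. These 4 genes and *Ir76a*, whose 4 length-scaled values were all below 1, were the only ones among 66 IR genes with counts in every library, and 46 had 0 counts. Some IR genes were present in 1 library only, such as *Ir94e* at 48.6 CPM in library 1 and *Ir40a* at 22.1 CPM in library 4. The IR genes summed to 474, 450, 469 and 681 CPM in libraries 1 to 4, a mean of 518 ± 109 CPM (SD, n = 4).

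Gustatory receptor genes were low. The 60 genes summed to 135 CPM in library 1, 167 in library 2, 74.4 in library 3 and 246 in library 4, and 4 of them had counts in all libraries. *Gr66a* and *Gr33a*, which are expressed by bitter-sensing neurons, averaged 21.4 ± 17.4 and 18.4 ± 9.87 CPM (SD, n = 4). *Gr68a* was the highest on both scales, at 7.96, 52.3, 25.4 and 89.9 CPM. *Gr21a*, a subunit of the carbon dioxide receptor, had 0 counts, and its partner *Gr63a* had 1 count in library 3.

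Of 35 listed genes of neuronal and synaptic function, 33 had counts in all 4 libraries, where 7028 of all 17283 genes did. The lists were chosen by hand, and all 26 genes of the epidermal list were likewise detected in all 4. *Gad1*, which makes the inhibitory transmitter GABA, had 0 counts in every library. The neuronal group summed to 3425 CPM in library 1, 6111 in library 2, 2803 in library 3 and 3368 in library 4. Library 2 was thus the highest, by 2.18-fold over the lowest.

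ORNs of insects release acetylcholine. *ChAT*, which makes acetylcholine, measured 99.5, 75.4, 64.9 and 102 CPM, and *VAChT*, which loads it into vesicles, 24.3, 58.4, 13.9 and 65.4 CPM in libraries 1 to 4. *VGlut*, the vesicular transporter for glutamate, lay between 2.79 and 11.1 CPM. *nSyb*, a vesicle protein of synapses, measured 170 CPM in library 1, 197 in library 2, 100 in library 3 and 190 in library 4. The pan-neuronal RNA-binding proteins *elav* and *fne* averaged 53.0 ± 37.8 and 46.3 ± 7.84 CPM (SD, n = 4), and the even values of *fne* differed from those of *elav*, which reached 108 CPM in library 2.

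Within the neuronal group, 22 of the 31 genes with a mean of at least 10 CPM had their highest value in library 2, or 71.0%, where 31.9% of all genes at that level did. *Syt1*, the calcium sensor of transmitter release, measured 78.0, 261, 101 and 35.3 CPM, and *para*, the voltage-gated sodium channel, 78.8, 236, 39.2 and 11.1 CPM in libraries 1 to 4. *futsch*, a microtubule-associated protein of axons, measured 172, 411, 76.1 and 153 CPM. *Appl*, the fly homolog of the amyloid precursor protein, was even at 363, 396, 339 and 349 CPM. Muscle genes were also highest in library 2, with a sum of 8054 CPM against 1963 to 3102 CPM in the others, and their part in the neuronal values was not tested.

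Genes of the sensory cilium, the compartment of the dendrite that carries the receptors, were nearly constant in sum. The 30 genes summed to 1059 CPM in library 1, 1014 in library 2, 1015 in library 3 and 995 in library 4, and 24 were detected in all 4 libraries. *CG15666*, the fly *BBS9*, which belongs to the complex that moves membrane proteins into cilia, averaged 190 ± 34.7 CPM (SD, n = 4). *Klp64D*, *Klp68D* and *Kap3*, the subunits of the kinesin that drives transport into the cilium, averaged 63.8 ± 25.2, 71.6 ± 23.4 and 66.5 ± 11.6 CPM. Single genes were less even than the sum, with a median CV of 55.0% over the 23 genes with a mean of at least 10 CPM.

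Of 26 genes of olfactory signaling and calcium handling, 20 were detected in all 4 libraries. *Ih*, a channel opened by hyperpolarization, measured 434 CPM in library 1, 396 in library 2, 318 in library 3 and 309 in library 4. Calmodulin, encoded by *Cam*, averaged 343 ± 77.8 CPM (SD, n = 4). *SERCA*, the calcium pump of the endoplasmic reticulum, varied from 53.8 CPM in library 3 to 420 in library 2. As in the neuronal group, library 2 was often the highest, for 13 of 19 genes with a mean of at least 10 CPM, or 68.4%. Of all genes at that level, 31.9% were highest in library 2.

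The transcription factor group held 27 genes with roles in ORN identity. *Xbp1*, a general factor of the response to unfolded proteins that also acts in OR choice, gave 57.1% of its sum and averaged 904 ± 197 CPM (SD, n = 4). *ss*, which encodes Spineless and specifies antennal identity, measured 107, 187, 67.3 and 118 CPM in libraries 1 to 4. *pdm3*, a POU factor of ORN targeting and receptor choice, averaged 16.9 ± 12.0 CPM. *Rfx*, which controls cilium genes, averaged 27.7 ± 13.4 CPM, and both were detected in all 4 libraries.

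Of 16 genes of sensory support cells, 11 were detected in all 4 libraries. *nompA*, made by sheath cells to attach the dendrite to the cuticle, measured 67.3, 136, 103 and 47.4 CPM in libraries 1 to 4. *pros*, a nuclear factor of sheath cells, averaged 77.9 ± 15.7 CPM (SD, n = 4). *pio* and *dpy*, which encode proteins of the apical extracellular matrix, averaged 341 ± 150 and 236 ± 115 CPM. *Ance*, a peptidase, measured 1241 CPM in library 1 but 60.0, 39.6 and 76.4 CPM in libraries 2 to 4. The 16 support genes summed to 2374, 895, 653 and 1134 CPM in libraries 1 to 4, and without *Ance* to 1133, 835, 613 and 1058 CPM, an alternative chosen after seeing the data.

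All 20 glial genes had counts in at least 1 library and 15 in all 4. Their sums were 2784, 3553, 3103 and 3750 CPM in libraries 1 to 4. *Gs2*, a glutamine synthetase that recycles glutamate in glia and is also used outside them, gave 53.4% and averaged 1761 ± 334 CPM (SD, n = 4). *repo*, the defining glial transcription factor, measured 107 CPM in library 1, 60.6 in library 2, 9.47 in library 3 and 33.0 in library 4. *moody*, a receptor of the glia that seal the blood-brain barrier, averaged 48.4 ± 21.6 CPM. The astrocyte gene *alrm* had 7 counts in library 1 and 0 in the others.

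Vacuolar proton ATPase genes, whose pump energizes the ion transport into sensillum lymph, were among the most even groups. The 33 genes summed to 7756 CPM in library 1, 8864 in library 2, 7457 in library 3 and 8979 in library 4. Of these genes, 20 were detected in all 4 libraries and 12 had 0 counts. *Vha13* measured 1223, 1422, 1244 and 1212 CPM and *Vha68-2* 862, 909, 1012 and 1047 CPM in libraries 1 to 4. The median CV of the 20 genes was 23.2%, against 52.4% over all genes with a mean of at least 10 CPM. The CV of all genes fell with level, to a median of 35.3% at 50 CPM or more and 18.8% at 1000 CPM or more. The sodium pump subunit gene *Atpalpha* averaged 1098 ± 291 CPM and the ammonium transporter gene *Rh50* 177 ± 62.1 CPM (SD, n = 4).

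Cuticle protein genes were uneven as a group. The 123 structural cuticle protein genes summed to 9378 CPM in library 1, 2196 in library 2, 7426 in library 3 and 19616 in library 4, an 8.93-fold range. The mean sum of 9654 CPM became 6333 CPM without library 4. Of these genes, 21 had counts in all 4 libraries, 44 in 1 to 3 and 58 in none. *Lcp65Ac*, a larval cuticle protein gene, gave 49.2% of the summed mean. It measured 260 CPM in library 1, 350 in library 2, 2682 in library 3 and 15712 in library 4. None of 20 neighbors in the length-scaled order of cuticle protein genes was free of overlap.

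Other cuticle protein genes peaked in other libraries. *Cpr11B* measured 3061 CPM in library 1 against 26.5, 68.6 and 23.5 CPM in libraries 2 to 4. *Lcp3* was also highest in library 1, at 915, 85.8, 163 and 6.64 CPM. *Lcp1* was nearly even, at 1247, 755, 1025 and 946 CPM. *Lcp1* and *Lcp2*, *Lcp3* and *Lcp4*, and the Lcp65A copies have closely similar sequences, so that short reads may be split uncertainly among them.

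The Lcp65A cluster on chromosome 3L from 6130386 to 6161589 holds 19 genes and took 0.0443 to 1.62% of the counts. Of its other members, *Cpr65Au* had an order of libraries like that of *Lcp65Ac*, with 13.5, 31.7, 142 and 367 CPM in libraries 1 to 4. *Lcp65Ab2* was highest in library 1, at 502 CPM, and lay between 55.4 and 160 CPM in the others. The remaining 16 genes averaged at most 10.7 CPM, the mean of *Cpr65Av*.

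The 29 genes that assemble and harden cuticle summed to 5987 CPM in library 1, 953 in library 2, 2513 in library 3 and 2201 in library 4. The mean sum of 2913 CPM became 1889 CPM without library 1. *CG16885* and *CG16884*, known as *Vajk2* and *Vajk3*, measured 2468 and 1854 CPM in library 1 and at most 113 CPM elsewhere. Without these 2 genes, an alternative chosen after seeing the data, the sums were 1665, 886, 2302 and 2161 CPM in libraries 1 to 4. Of the 17 genes with a mean of at least 10 CPM, 2 were highest in library 1, 1 in library 2, 6 in library 3 and 8 in library 4. Their shares were 11.8, 5.88, 35.3 and 47.1% in libraries 1 to 4. The shares of all genes at that level were 21.5, 31.9, 19.0 and 27.6%. The chitin synthase gene *kkv* measured 63.8 CPM in library 4 and at most 5.75 CPM in the others. *ple* and *Ddc*, enzymes of the dopamine pathway that also hardens cuticle, were highest in library 3, at 639 and 222 CPM.

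Genes of epidermal polarity and septate junctions were all detected in all 4 libraries. The 26 genes summed to 3652 CPM in library 1, 3925 in library 2, 2691 in library 3 and 4321 in library 4. *cora*, a scaffold protein of septate junctions, measured 297, 250, 269 and 309 CPM in libraries 1 to 4, and *arm*, the fly beta-catenin, 275, 392, 319 and 406 CPM. The epidermal transcription factor gene *grh* was low, at 35.8, 7.69, 7.44 and 15.9 CPM. *Atpalpha*, the sodium pump subunit gene, gave 30.1% of the summed mean of this group. In library 2 the cuticle sum was the lowest and the epidermal sum lay in the range of the other libraries. How the cuticle and epidermal sums relate was not tested.

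**Figure D4:**
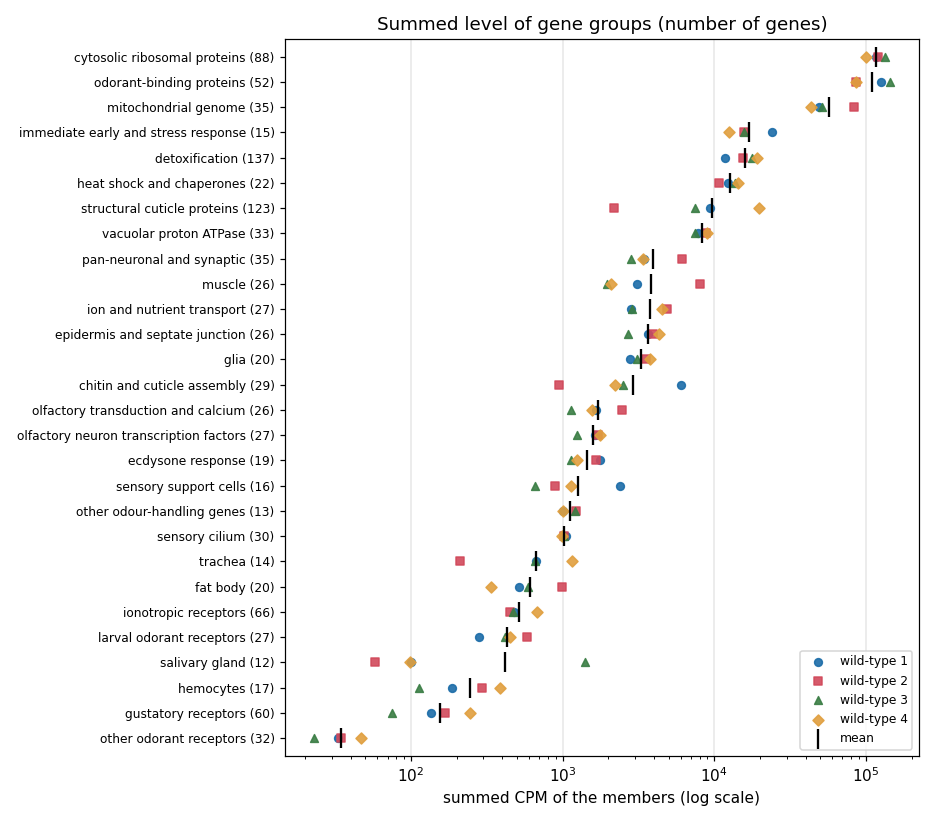
Summed CPM of 28 gene groups in each wild-type library on a log axis (colored symbols) with the mean (black bar) and the number of genes in parentheses. The symbols overlap for the sensory cilium, vacuolar proton ATPase and ribosomal protein groups, muscle and neuronal genes are highest in library 2, and the salivary gland group is high in library 3 alone.

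Markers of tissues next to the dorsal organ were checked in the same way, and their part in the other values was not tested. The 26 muscle genes summed to 3102 CPM in library 1, 8054 in library 2, 1963 in library 3 and 2083 in library 4. Of the 19 with a mean of at least 10 CPM, 17 were highest in library 2. That is 89.5%, where 31.9% of all genes at that level were highest there. The mean sum of 3800 CPM became 2383 CPM without library 2. *Mhc*, the muscle myosin heavy chain, measured 25.5, 151, 14.5 and 5.22 CPM and *Act57B*, a muscle actin, 218, 1239, 245 and 189 CPM. *Msp300*, a nuclear envelope protein that is not restricted to muscle, gave 46.6% of the summed mean.

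Salivary gland genes were found in library 3. The 12 genes summed to 1412 CPM there and to 57.8 to 99.5 CPM in the others, so that the mean sum of 417 CPM became 85.3 CPM without library 3. *Sgs7*, *Sgs3*, *Sgs5* and *Sgs8* encode glue proteins that larvae late in the third instar secrete before pupariation. They measured 529, 279, 188 and 124 CPM in library 3, whereas the other libraries had 0 counts apart from 2 counts of *Sgs7* in library 2. Against the floor of 3 counts, *Sgs3* was at least 233-fold higher in library 3 than in any other library. The larval serum protein genes *Lsp1beta* and *Lsp2* of the fat body were also highest in library 3, at 89.6 and 80.8 CPM.

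The sums of the other tissue groups lay below that of the muscle genes in every library. This muscle sum includes *Msp300*, which is not restricted to muscle, and the order without it was not examined. The mean sums of the fat body and tracheal groups, 610 and 669 CPM, lay above the 432 CPM of the larval OR genes. The 17 hemocyte genes summed to 113 to 387 CPM, of which the scavenger receptor gene *crq* gave 64.5%, and *NimC1*, a defining marker, had counts in library 4 only. The 20 fat body genes summed to 336 to 993 CPM, with *Lsd-2* as the highest. The tracheal group summed to 210 to 1144 CPM, most of it from the chitin genes *Gasp*, *serp* and *verm*. The tracheal regulators *trh* and *btl* each had at most 6.64 CPM.

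The 4 libraries differed by more than counting noise in all 6 pairs. Spearman correlations of CPM over the 10902 detected genes were 0.741 to 0.812, given as a description across genes, which are not independent. For each gene with at least 20 counts in a pair together, the squared difference was divided by the variance that counting noise gives. Counts were first scaled for the totals of the libraries. The median of this ratio over genes was 15.5 to 35.6 in the 6 pairs. The common biological coefficient of variation, which edgeR estimates as the relative spread between samples beyond counting noise, was 0.533 over 5395 genes. It was 0.498 when library 2 was left out and 0.558 at most when another library was left out.

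The spread was smaller at higher levels. Of 2738 genes with a mean of at least 50 CPM, 41.3% stayed within a 2-fold range over the 4 libraries and 6.65% spanned more than 10-fold. The median CV was 35.3% for these genes and 18.8% for the 137 genes with a mean of at least 1000 CPM. The 82 cytosolic ribosomal protein genes with a mean of at least 10 CPM had a median CV of 15%. Their group of 88 genes took 11.6, 12.1, 13.3 and 9.98% of the counts in libraries 1 to 4.

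**Figure D5:**
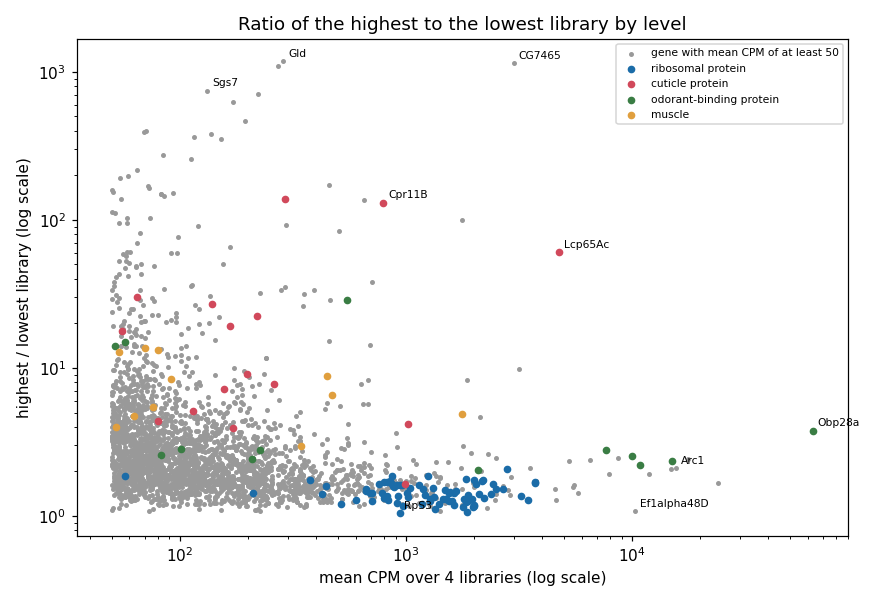
Ratio of the highest to the lowest library (log y axis, values under 3 counts set to 3 counts) against the mean CPM over 4 libraries (log x axis) for the 2738 genes with a mean of at least 50 CPM. Ribosomal protein genes lie near the bottom, cuticle protein genes reach above 100-fold and *Gld* and *CG7465* exceed 1000-fold, as does *CG14118*.

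The most even genes with a mean of at least 50 CPM included genes of translation but did not share 1 function. Others among them were *alpha-Cat*, *ru* and *phr*, and *CG10077* and *CG33774*, which are named only by number. *RpS3* measured 938 CPM in library 1, 961 in library 2, 920 in library 3 and 942 in library 4, a CV of 1.76%. *RpLP0* had a CV of 2.53% at a mean of 1865 CPM. The elongation factor gene *Ef1alpha48D* had a CV of 3.15% at a mean of 10341 CPM, and the signaling adaptor gene *14-3-3epsilon* one of 3.64% at 1416 CPM. Of the 4 ribosomal protein genes among the 30 highest, *RpS3A* and *RpL5* had CVs of 12.3 and 13.3%, and *RpS25* and *RpLP2* CVs of 21.5 and 29.7%.

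The genes with the largest ratios between libraries were mostly high in 1 or 2 libraries, with *CG33333*, at 273, 60.6, 218 and 0 CPM in libraries 1 to 4, as an exception. *CG7465* measured 11955 CPM in library 1 but 10.5, 38.5 and 26.1 CPM in libraries 2 to 4, and it entered the 30 highest genes through library 1 alone. *Gld*, a glucose dehydrogenase that modifies cuticle, measured 1085, 0.615, 13.9 and 51.5 CPM in libraries 1 to 4. *yellow-e* measured 396 CPM in library 4 and at most 31.8 CPM elsewhere. *CG14118* also peaked in library 4, at 1017 CPM against at most 38.5 CPM.

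Genes with at least 50 CPM in 1 library and more than 10-fold less in every other numbered 17 for library 1, 10 for library 2, 12 for library 3 and 16 for library 4. Those of library 1 included *Cpr11B*, *CG16885*, *CG16884*, *Gld* and *Ance*, named above. Those of library 3 included *Sgs7*, *Sgs3*, *Sgs5*, *Sgs8* and *Eig71Ee*, and the pigmentation gene *e*, which encodes Ebony and measured 196 CPM there against at most 0.398 CPM in the others. In the opposite direction, 46 genes with a mean of at least 50 CPM were more than 10-fold lower in library 2 than in any other library, against 3, 3 and 5 genes for libraries 1, 3 and 4. Library 2 also had the fewest detected genes, 8438 against 8874 to 9479 in the others. With each library thinned to the smallest total, it had 8309 against 8779 to 9479. The part of this in the low values of library 2 was not tested.

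Detoxification and stress genes completed the abundant part of the transcriptome. The 137 genes of cytochrome P450s, glutathione S-transferases and related enzymes summed to 11835 CPM in library 1, 15394 in library 2, 17683 in library 3 and 19225 in library 4. *GstD1* gave 32.7% of the summed mean and measured 3381, 3326, 6512 and 7771 CPM, high in libraries 3 and 4. The 11 genes of the GstD cluster on chromosome 3R from 12364776 to 12385624 took 0.817 to 1.40% of the counts. *GstD2* and *GstD8* averaged 2827 ± 516 and 2464 ± 297 CPM (SD, n = 4), and the other 8 genes averaged 9.07 to 265 CPM.

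Among P450 genes, *Cyp6w1* was the highest on both scales, at 203, 362, 449 and 435 CPM in libraries 1 to 4. Chaperone genes summed to 10678 to 14221 CPM. The constitutive *Hsc70-4* gave 42.9% of this and averaged 5457 ± 1064 CPM (SD, n = 4). The small heat shock protein gene *Hsp23* averaged 2924 ± 780 CPM, and *Hsp27* averaged 751 ± 127 CPM. The inducible *Hsp70Ab* and *Hsp70Bb* averaged 203 ± 77.1 and 145 ± 13 CPM, and as near-identical copies they may share reads.

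Of 35 genes of the mitochondrial genome, 12 had counts in all 4 libraries and 23, mostly tRNA genes, had none. Together they took 4.90, 8.37, 5.10 and 4.32% of the counts in libraries 1 to 4. *mt:CoI* measured 15138, 29577, 12117 and 13980 CPM and was highest in library 2, as were 8 of the 11 mitochondrial genes with a mean of at least 10 CPM. That is 72.7%, where 31.9% of all genes at that level were highest in library 2. *mt:CoII* was an exception, with its highest value of 19661 CPM in library 3. *mt:ND4L* stayed below 1.02 CPM.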

How the data were processed

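RNA of 4 wild-type samples was described and the *Orco* mutant samples were not used. Estimated counts of genes and of transcripts were deposited, which the authors made with kallisto 0.43.0 and tximport from FlyBase transcripts after demultiplexing with CASAVA 1.8.2 and adapter removal with cutadapt 1.9.1. They are not normalized. Here the gene counts were rounded to whole numbers, 138 genes with rRNA in their name were left out and CPM was computed over the other 17283. For length-scaled levels, transcript counts were divided by the exon length of the Ensembl 115 annotation of Release 6, which gave a length for 34084 of 34416 transcripts, and summed per gene. Ambiguous reads between similar genes were divided by kallisto's model, and the intervals of that division are unknown. Without molecular identifiers, counts include amplified copies, and floors cover counting error only. The spread was estimated with edgeR 4.0.16 (TMM, filterByExpr, no contrast) and checked on simulated counts. These had the same spread for all genes, and agreement was required only for genes with a mean of at least 50 CPM. The check thus does not cover a spread that changes with level. Values over 4 libraries are mean ± SD.

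The members and gene lists were chosen with earlier results of these data known. The genes to name were the 30 highest by CPM and by length-scaled level, *Orco*, the larval OR genes, the 8 highest members and defining markers of each list, and the 15 most and 15 least variable genes at a mean of at least 50 CPM. *CG14455*, the silent genes of clusters, and genes found in 1 library were added once their values had been seen. The alternatives were TMM and RLE scaling, other totals, medians, filters, thinning and leaving out each library.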

Additional observations from a re-analysis of the deposited data

Results flagged for a closer look

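Of 198 values examined over the 4 wild-type libraries (genes named in the text, group sums and library measures), 17 had 1 library whose gap to the nearest other exceeded Dixon's critical share of the range for 4 samples, on the log2(CPM + 1) scale for levels. Chance gives such a gap in about 1 of 20 groups of normally distributed values. This rate does not hold for counts with zeros, and any gene among the 198 values with 0 counts in all 4 libraries could not give a gap. Where 3 libraries have 0 counts, any count in the remaining library gives such a gap. Several of these genes were also named because 1 library stood apart. The values are not independent, since group sums were examined beside their own members. The salivary gland sum thus repeats the signal of its *Sgs* genes and *Eig71Ee*. In 10 of the 17, library 3 was the high one. These were the salivary gland sum at 1412 CPM against 57.8 to 99.5 CPM, *Sgs7* at 529 CPM, *Sgs3* at 279 CPM, *Eig71Ee* at 191 CPM, *Sgs5* at 188 CPM and *Sgs8* at 124 CPM, where the other libraries had 0 counts apart from 2 counts of *Sgs7* in library 2. The pigmentation gene *e* at 196 CPM and the ribosomal gene *RpLP2* at 5360 CPM against 3146 to 3174 CPM also stood apart in library 3, as did *Gr63a* and *Dpt*, both at 0.338 CPM, which is a single count and below the floor.

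Library 2 stood apart for the muscle actin gene *Act57B* at 1239 CPM against 189 to 245 CPM and for *Vha13* at 1422 CPM against 1212 to 1244 CPM. Library 4 did so for the IR sum at 681 CPM against 450 to 474 CPM, for *Ir40a* at 22.1 CPM and for *NimC1* at 6.88 CPM. Library 1 did so for *Ir94e* at 48.6 CPM and for the astrocyte gene *alrm* at 2.79 CPM. The other libraries had 0 counts of these last 4 genes.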

How the results depend on the processing

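Scaling with TMM or RLE moved no group sum, and none of the levels of *Orco*, *Obp28a*, *CG14456*, *Arc1* and *Ir21a*, by more than 1 SD of the libraries. The median over libraries in place of the mean lowered the salivary gland sum from 417 to 99.1 CPM. With rRNA genes kept in the total, mean levels fell to 296 CPM for *Orco*, 259 for larval OR, 305 for IR, 64488 for OBP, 2311 for neuronal and 69135 for ribosomal protein genes, because the total is larger. Without mitochondrial genes the 100 highest genes took 40.3% in place of 42.9%. Of the 30 highest genes, 27 remained with medians and 23 by length-scaled level. The biological coefficient of variation was 1.08 with no filter, over 10902 genes in place of 5395, and the median Spearman correlation fell from 0.779 to 0.664 over genes with a mean of at least 10 CPM.

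Leaving out each library in turn gave 456 to 525 CPM for *Orco*, 48881 to 74657 for *Obp28a*, 383 to 483 for larval OR, 464 to 541 for IR, 98842 to 118108 for OBP, 3199 to 4302 for neuronal, 6333 to 12140 for cuticle protein, 2383 to 4413 for muscle and 112121 to 123076 CPM for ribosomal protein genes. Genes detected in all libraries kept numbered 7153 to 7599, the 10 highest genes took 19.1 to 20.7% and the coefficient of variation was 0.498 to 0.558. With each library thinned to the smallest total, 6892 genes were detected in all 4, and 5456 had at least 10 counts in all 4. Counts of 1 to 3 lie at or below the floor. No paired analysis was possible because only 1 group was described and no test was made.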

Other observations

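Genes of the immune response differed between libraries. *Listericin*, which encodes an antibacterial peptide, was among the 30 highest genes at 1818, 700, 3244 and 6919 CPM in wild-type libraries 1 to 4. The attacin genes *AttA* and *AttB* measured 346 and 337 CPM in library 3 and 433 and 123 CPM in library 4, but at most 2.79 CPM in libraries 1 and 2. The diptericin gene *Dpt* had 1 count in library 3 and 0 in the others, unlike the attacin genes.

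Of 19 genes that respond to ecdysone, the molting hormone, 14 had counts in all 4 libraries and 5 in 1 to 3. *br*, an early ecdysone gene, measured 530 CPM in library 1, 160 in library 2, 129 in library 3 and 296 in library 4, and *EcR*, the receptor gene, 319, 279, 98.4 and 177 CPM. Both were highest in library 1 and lowest in library 3. The eye pigment gene *w*, which is mutated in the *w1118* background and serves as the marker of many transgenes, measured 5.57, 3.69, 15.2 and 29.9 CPM in libraries 1 to 4.

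Of 93 nuclear genes with a position among the 100 highest, 14 had another of these genes within 10000 bp, such as *Obp56b*, *Obp56c* and *Obp56d*. Pairs from different families, such as *RpS29* and *MtnA*, were also among them. How many such neighbors any 93 genes would have was not examined, so the count does not show that abundant genes cluster.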
